A study of Mus musculus with 6 samples.

Results

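The genes described here encode complement, coagulation and fibrinolysis proteins that hepatocytes secrete into plasma. A list of 37 symbols set the members, and all 37 were found among the 22481 gene symbols of the deposited mRNA expression table. Of these, 9 also respond to inflammation and were kept apart as acute phase members: the fibrinogen chains Fga, Fgb and Fgg, the complement genes C3, C4b, C9 and Cfb, and the complement inhibitors Serping1 and C4bp. The libraries came from livers of male C57BL/6J mice, an inbred strain, at 10 weeks of age. The fed group (3 libraries) had food freely available, and the fasted group (3 libraries) went without food for 16 h before sacrifice. No other treatment or allele is given in the labels. Whether the libraries of a group are separate mice is not stated, and p-values therefore measure a spread among libraries that may be technical. Values by library are given in the order 1, 2 and 3 within each group.

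Clotting proceeds as a cascade in which inactive plasma proteases activate each other until thrombin cuts fibrinogen into fibrin. Antithrombin, protein C and protein S restrain the cascade, and plasmin dissolves the clot. Complement is a parallel protease cascade that marks microbes and ends in a pore built from its terminal components. The liver is the main source of most of these proteins, and in inflammation interleukin 6, acting through STAT3, raises the transcription of fibrinogen and several complement genes in hepatocytes.

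Counts with each library's scaling step divided out summed to 12289648 to 14771815 in fed and 11158002 to 11639385 in fasted libraries. CPM stands for the count scaled by the TMM-adjusted library total, and on that scale 3 counts were worth between 0.186 and 0.291. The acute phase state differed among libraries of the same feeding state. The mean log2 CPM of 20 acute phase reference genes, none of them a member (Hpx, Hp, Saa1 and others), was 8.23, 10.87 and 11.86 fed and 10.46, 10.60 and 9.78 fasted. Fed library 1 was lowest and fed library 3 highest. Summed hepatocyte markers (8 of 8 in the table) ranged from 55212 to 89176 CPM in fed and 98057 to 120548 CPM in fasted libraries, with Alb listed at 0 in fed library 2, a doubtful value. Those sums did not overlap, but without Alb the other 7 markers ran from 30521 to 55866 CPM in fed and from 47812 to 51813 CPM in fasted libraries, which overlap. Of the 8 markers edgeR called 0, with 3 at an unadjusted p under 0.05 (37.5%, against 21.8% of all genes tested). DESeq2 called 3, all higher in fasted livers (Apoa1, Apoh and Rbp4), where it called 8.33% of all genes. The edgeR estimates were positive for 6 of the 8, Alb included, and negative for 2 (Trf and Ttr), with a median log2 fold change of 0.65. Kupffer cell markers (5 of 6) summed to 356 to 490.2 and 342 to 508 CPM, and leukocyte markers (6 of 6) to 19.5 to 149 and 26.6 to 88.0 CPM in fed and fasted libraries. Of the leukocyte markers edgeR tested only 3 (Ptprc, S100a8 and S100a9), and of the Kupffer cell markers 5. Neither list held a called gene in edgeR or DESeq2. An unadjusted edgeR p under 0.05 was reached by 1 Kupffer cell marker (20%) and 0 leukocyte markers, against 21.8% of all genes tested. S100a8 and S100a9 were lowest in fed library 1 (2.19 and 3.74 CPM), and Ptprc in fasted library 3 (7.96 CPM). Red cell markers (4 of 4) summed to 74.6 to 237 CPM fed and 131 to 212 CPM fasted. Of them 3 (Hba-a1, Hbb-bs and Hbb-bt) had an unadjusted edgeR p under 0.05 (75%, against 21.8% of all genes tested). These were higher in fasted livers, without a call in edgeR or DESeq2. The remaining marker, Alas2, had the other sign (edgeR log2 fold change -1.01, adjusted p = 0.421). Among 5 stellate cell markers (164 to 204 CPM fed and 164 to 238 CPM fasted) DESeq2 called Lrat, lower in fasted livers (log2 fold change -1.22 and adjusted p = 0.0858 in edgeR). The estimates were positive for 3 of the 5 (Des, Col1a1 and Dcn) and negative for 2, with a median log2 fold change of 0.12. The markers' part in the results below was not tested. In whole liver, fewer cells of a type and less RNA per cell cannot be told apart.

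After the fast, F11 fell and no other member passed the test. All 37 members passed the filter on low counts. The 1 called member is 2.7% of the members, against 2.52% of all 11633 genes tested (edgeR's quasi-likelihood test, Benjamini-Hochberg adjusted p under 0.05), a share near the background. In the lower direction it was 1 member against 1.11% of all genes, and in the higher direction 0 members against 1.41%. The median log2 fold change, fasted minus fed, was -0.18 for the 9 acute phase members, 0.082 for the 28 others and -0.016 for all genes tested. Fasted and fed libraries did not overlap in CPM for 10 members (27%), against 29% of all genes tested. Of these, 6 were higher in fasted libraries (16.2% against 15.3%): F2, F5, F12, Plg, Pros1 and C4b. The other 4 were lower (10.8% against 13.7%): F11, C8a, C6 and Mbl1. An unadjusted p under 0.05 was reached by 7 members (18.9%, against 21.8%), 3 of them higher (8.11% against 11%) and 4 lower (10.8% against 10.8%).

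**Figure D1:**
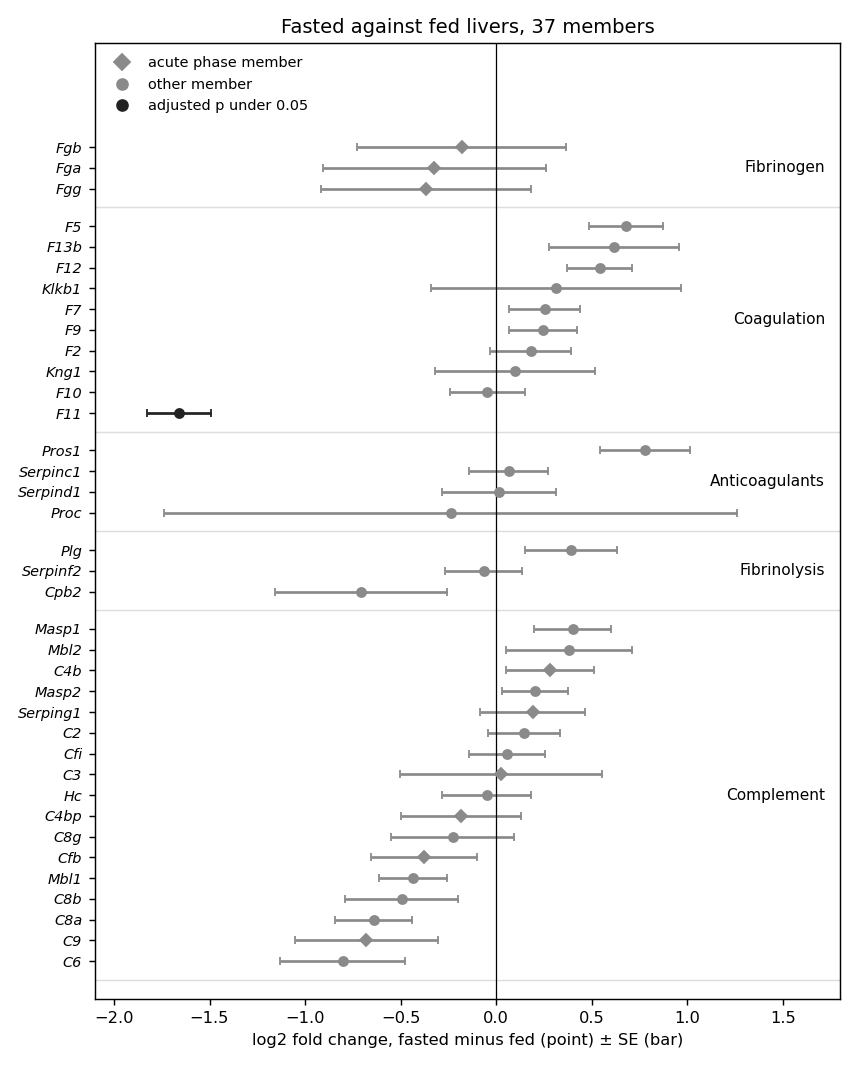
Log2 fold change of the 37 members, fasted minus fed (x axis, points) with the standard error (bars), ordered within roles. F11 at -1.66 is the single black point, and the bars of the fibrinogen chains, Klkb1 and Proc are wide and cross 0.

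F11 encodes factor XI, the protease zymogen of the intrinsic route to factor IX. It stood at 110.3, 87.8 and 110.1 CPM fed and at 33.9, 35.9 and 27.7 CPM fasted. Every fasted library lay below every fed library, and the values within a feeding state lay close together. From 103 ± 12.9 to 32.5 ± 4.29 CPM (mean ± SD, n = 3 each), the transcript fell 3.16-fold (edgeR log2 fold change -1.66 ± 0.17 SE, adjusted p = 0.0113). On the deposited FPKM scale, which also divides by transcript length, it was at 52.4, 39.8 and 44.9 FPKM fed and at 13.8, 14.9 and 12.1 FPKM fasted, again without overlap. The call held without fed library 1, 2 or 3. It missed the threshold without fasted library 1, 2 or 3, at edgeR adjusted p of 0.0569, 0.0779 and 0.0504, while the log2 fold change ran from -1.73 to -1.58 in these fits.

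F11 lies on chromosome 8 of GRCm38 at chr8:45241174-45262031, on the minus strand, and no annotated exon of another gene overlaps its exons. Its neighbour in the annotation is Klkb1, which encodes plasma prekallikrein, a close relative of factor XI. Klkb1 was at 141, 83.8 and 14.6 CPM fed and at 87.3, 95.8 and 115 CPM fasted, with overlapping groups (edgeR log2 fold change 0.31 ± 0.65 SE, adjusted p = 0.812). Its lowest value by far was that of fed library 3. The Klkb1 values are uncertain, since its identifier belongs in GENCODE M21 to a model named Gm45753 whose exons overlap those of Klkb1 and Cyp4v3, and its estimated counts in 4 libraries lay more than 0.07 from a whole number of reads. The F11 promoter is shown because F11 is the called member, and the fibrinogen promoters because the 3 chains varied together among libraries.

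The sequences are 300 bases each from RefSeq on GRCm38.p6, from 250 bases before the annotated start to 50 after it, 5′ to 3′ on the gene's own strand, and capitals mark matches to the motifs described after them. They lie at chr3:83025903-83026202 (Fga, plus strand), chr3:83049814-83050113 (Fgb, minus strand), chr3:83007474-83007773 (Fgg, plus strand) and chr8:45261982-45262281 (F11, minus strand).
Fga: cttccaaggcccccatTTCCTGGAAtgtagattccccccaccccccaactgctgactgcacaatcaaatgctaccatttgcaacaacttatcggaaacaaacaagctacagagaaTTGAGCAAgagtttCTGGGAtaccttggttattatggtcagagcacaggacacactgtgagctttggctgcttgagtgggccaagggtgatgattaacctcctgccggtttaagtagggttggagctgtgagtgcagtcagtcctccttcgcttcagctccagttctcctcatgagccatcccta
Fgb: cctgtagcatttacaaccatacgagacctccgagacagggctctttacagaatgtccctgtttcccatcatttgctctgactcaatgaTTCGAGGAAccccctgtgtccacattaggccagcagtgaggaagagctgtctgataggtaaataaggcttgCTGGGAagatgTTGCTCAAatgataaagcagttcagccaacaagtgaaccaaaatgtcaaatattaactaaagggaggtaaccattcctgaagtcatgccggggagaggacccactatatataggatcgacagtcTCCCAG
Fgg: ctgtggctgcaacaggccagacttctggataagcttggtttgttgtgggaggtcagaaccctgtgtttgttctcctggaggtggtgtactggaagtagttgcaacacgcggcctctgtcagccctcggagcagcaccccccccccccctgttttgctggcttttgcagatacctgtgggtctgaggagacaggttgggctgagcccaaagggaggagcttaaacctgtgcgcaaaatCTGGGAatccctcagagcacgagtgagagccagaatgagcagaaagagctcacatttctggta
F11: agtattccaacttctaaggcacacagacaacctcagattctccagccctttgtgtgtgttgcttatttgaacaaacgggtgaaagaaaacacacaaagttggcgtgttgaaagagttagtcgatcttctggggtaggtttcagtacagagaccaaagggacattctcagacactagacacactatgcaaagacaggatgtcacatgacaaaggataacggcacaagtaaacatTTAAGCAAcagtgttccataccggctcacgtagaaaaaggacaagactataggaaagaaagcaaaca

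Motifs were searched as letters on both strands: the interleukin 6 response motif CTGGGA, the STAT motif TTCNNNGAA and the C/EBP motif TTGCNNAA. The STAT letters can overlap CTGGGA. RefSeq promoters were matched for 28 of the 37 members (29 promoters, 6 of them acute phase members). CTGGGA was present in all 3 fibrinogen promoters, at 121, 91 and 13 bases before the start of Fga, Fgb and Fgg, and again as TCCCAG after the start of Fgb. It was absent from the F11 window. The letters were held by 15 of 29 member promoters (51.7%) and by 31.8% of all 32851 promoters. The STAT letters stood in Fga (TTCCTGGAA) and Fgb (TTCGAGGAA) and in 6 of 29 member promoters (20.7%), against 8.3% of all. C/EBP letters stood in Fga, Fgb and F11, and in 9 of 29 (31%) against 10.8% of all. HNF1 letters stood in 3 of 29 (10.3%) against 0.399% of all, and in none of the promoters shown. A match describes letters only and no binding was measured.

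Of the 10 coagulation factors outside fibrinogen edgeR called 1, F11 (10%, against 2.52% of all genes), and DESeq2 called 3, F5, F11 and F12, against 8.33% of all genes. Their median log2 fold change was 0.25, against -0.016 for all genes. Among the others, F5 and F12 had the largest estimates without overlap. F5, the cofactor that speeds thrombin formation, was at 349, 436 and 365 CPM fed and at 529, 666 and 643 CPM fasted. All fasted libraries lay above all fed libraries (edgeR log2 fold change 0.68 ± 0.19 SE, adjusted p = 0.110). F12, factor XII, which starts the contact route upstream of factor XI, was at 292, 344 and 290.2 CPM fed and at 463, 458 and 427 CPM fasted (edgeR log2 fold change 0.54 ± 0.17 SE, adjusted p = 0.131). Here too the groups did not overlap, and the estimates for F12 and F11 had opposite signs. The FPKM ratio of F12 to F11 was 3.07, 4.54 and 3.06 fed and 15.8, 14.8 and 17.9 fasted. F12 was chosen after its values were seen. With opposite signs and no overlap in either gene the ratios had to separate, and their difference was not tested. F2, prothrombin, was at 1289.8, 1567 and 1594 CPM fed and at 1684, 1768 and 1595 CPM fasted, separated by a narrow margin between fed library 3 and fasted library 3 (edgeR log2 fold change 0.18 ± 0.21 SE, adjusted p = 0.658). On the FPKM scale the F2 groups overlapped, at 698, 809 and 741 FPKM fed and at 781, 838 and 792 FPKM fasted.

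F13b, the carrier subunit of the fibrin crosslinking factor XIII, was at 230.2, 151 and 84.3 CPM fed and at 220.0, 225 and 269 CPM fasted. Fed libraries 2 and 3 lay below every fasted library and fed library 1 within their range (edgeR log2 fold change 0.62 ± 0.34 SE, adjusted p = 0.339). Kng1, the kininogen that carries prekallikrein and factor XI, was at 1662, 4213 and 4695 CPM fed and at 3999, 4406 and 2911 CPM fasted. Its lowest value was that of fed library 1, and the groups overlapped (edgeR log2 fold change 0.098 ± 0.42 SE, adjusted p = 0.915). F7, F9 and F10, vitamin K dependent proteases, had log2 fold changes of 0.25, 0.25 and -0.047 (edgeR adjusted p = 0.472, 0.466 and 0.913), with overlapping groups.

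None of the 4 anticoagulants passed in edgeR, and 1 had an unadjusted p under 0.05 (25%, against 21.8% of all genes). DESeq2 called 1, where it called 8.33% of all genes. In both cases the gene was Pros1. Pros1 encodes protein S, the cofactor of activated protein C, and was at 64.2, 105 and 108 CPM fed and at 158, 179 and 137 CPM fasted. The lowest fasted library exceeded the highest fed library (edgeR log2 fold change 0.78 ± 0.23 SE, adjusted p = 0.120). Serpinc1, which encodes antithrombin, the main inhibitor of thrombin, was at 1729, 1976 and 1788 CPM fed and at 1941, 1886 and 1923 CPM fasted (edgeR log2 fold change 0.066 ± 0.21 SE, adjusted p = 0.882). Its values lay close together in both groups. Serpind1, heparin cofactor II, was at 571, 552 and 274 CPM fed and at 457, 424 and 528 CPM fasted, with fed library 3 lowest (edgeR log2 fold change 0.012 ± 0.30 SE, adjusted p = 0.984).

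Proc, the protein C gene, gave values that cannot be compared. It was at 43.0, 0.249 and 30.4 CPM fed and at 0, 43.6 and 18.5 CPM fasted. Fed library 2 and fasted library 1 were at or near 0 while the other 4 held 214 to 610 estimated reads before rounding, and every estimate lay more than 0.07 from a whole number of reads. The fitted log2 fold change of -0.24 had an SE of 1.5 (edgeR adjusted p = 0.944). The values near 0 may be failures of the authors' estimation, and no direction is drawn from Proc.

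None of the 3 fibrinolysis genes passed in edgeR or DESeq2, and 0 had an unadjusted p under 0.05. Plg, which encodes plasminogen, was at 2418, 3087 and 3069.5 CPM fed and at 3709, 3913 and 3621 CPM fasted. The fasted libraries were all higher, and the difference did not pass (edgeR log2 fold change 0.39 ± 0.24 SE, adjusted p = 0.383). Cpb2 encodes the carboxypeptidase that protects fibrin from plasmin and was at 561, 1294 and 1874 CPM fed and at 832, 937 and 514 CPM fasted. Fed library 3 was highest, fasted library 3 was lowest, and the other values lay between them (edgeR log2 fold change -0.71 ± 0.45 SE, adjusted p = 0.403). Serpinf2, antiplasmin, had a log2 fold change of -0.066 (edgeR adjusted p = 0.879).

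**Figure D2:**
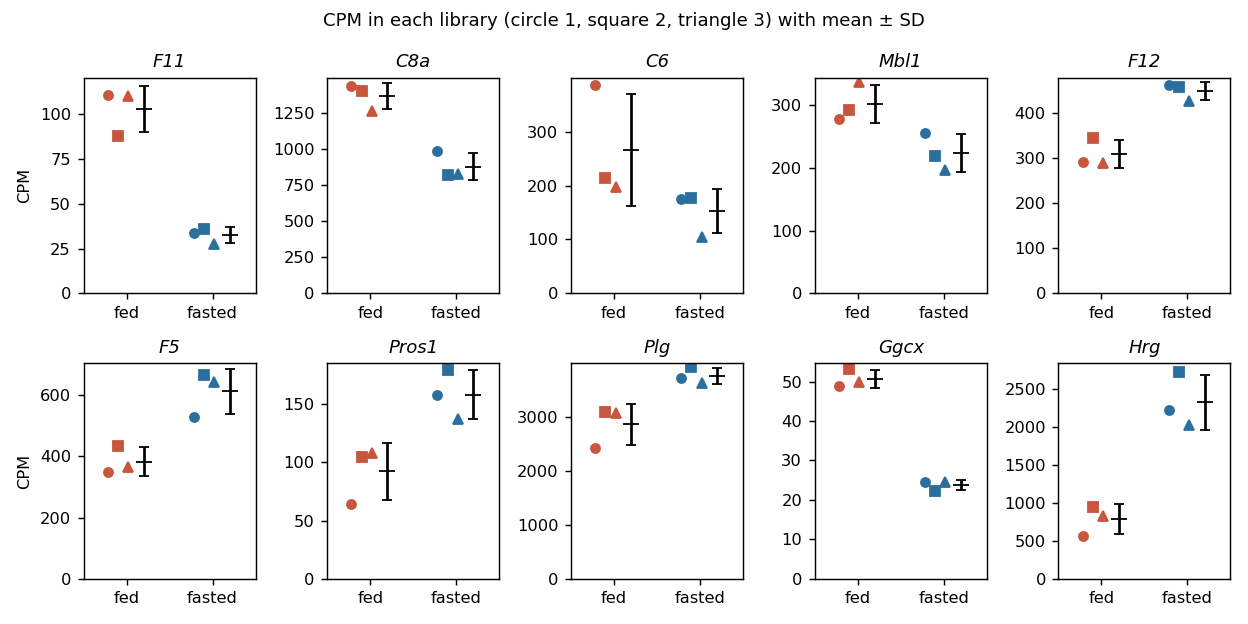
CPM (y axes, from 0) of 8 members and of Ggcx and Hrg in fed (red) and fasted (blue) libraries, with the mean ± SD of 3 libraries in black. Only genes whose fed and fasted points do not overlap are shown, so the separation in each panel comes from that choice. Such genes were 10 of the members (27%), against 29% of all genes tested. F11 was at 87.8 to 110.3 CPM fed and 27.7 to 35.9 CPM fasted.

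Of the 17 complement proteins and inhibitors none passed in edgeR (median log2 fold change -0.051). An unadjusted edgeR p under 0.05 was reached by 3, C8a, C6 and Mbl1 (17.6%, against 21.8% of all genes). DESeq2 called 1, C8a, where it called 8.33% of all genes. The products of C6, C8a, C8b, C8g, C9 and Hc start or form the membrane pore. C8a, the alpha chain of C8, was at 1434, 1398 and 1262 CPM fed and at 981, 819.7 and 823 CPM fasted, without overlap (edgeR log2 fold change -0.64 ± 0.20 SE, adjusted p = 0.131). C6 was at 386, 214 and 198 CPM fed and at 175, 176 and 105 CPM fasted, also without overlap, with fed library 1 far above the others (edgeR log2 fold change -0.80 ± 0.32 SE, adjusted p = 0.209). C8b and C8g, the other chains of C8, had log2 fold changes of -0.50 and -0.23 (edgeR adjusted p = 0.369 and 0.716), and their fed values ran from 323 to 709 and from 102 to 259 CPM, beyond every fasted library on both sides. Hc, the mouse gene for C5, had a log2 fold change of -0.051 (edgeR adjusted p = 0.921). C9, which forms the wall of the pore, was at 1652, 933 and 601 CPM fed and at 709, 741 and 539 CPM fasted, and its fed values spanned nearly the whole range (edgeR log2 fold change -0.68 ± 0.38 SE, adjusted p = 0.337).

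In the lectin route, Mbl1, a mannose binding lectin, was at 278, 293 and 337 CPM fed and at 256, 219 and 197 CPM fasted, lower in every fasted library (edgeR log2 fold change -0.43 ± 0.18 SE, adjusted p = 0.216). Mbl2, its paralog, was at 251, 259 and 107 CPM fed and at 246, 271 and 286 CPM fasted, where fed library 3 was lowest and the groups overlapped (edgeR log2 fold change 0.38 ± 0.33 SE, adjusted p = 0.543). The difference between the paralogs was not tested. Masp1 and Masp2, the proteases bound to these lectins, had log2 fold changes of 0.40 and 0.20 (edgeR adjusted p = 0.297 and 0.539). C2, the protease of the classical and lectin convertase, and Cfi, the inhibitor factor I, had log2 fold changes of 0.15 and 0.055 (edgeR adjusted p = 0.688 and 0.900). C2 and Cfb share exons with a readthrough model, Gm20547, so reads can be divided among them. Opposite-strand exons of other genes overlap F5, Fgg, Hc, Masp2, Plg, Serpinc1 and C2, and the estimates of C4b and Serpinf2 were not whole in most libraries.

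The acute phase members spread widely among fed libraries. Their median range over the 3 fed libraries was 1.46 on the log2 scale, against 0.48 in the other members and 0.51 in all genes tested. None of the 9 passed in edgeR or DESeq2, and 0 had an unadjusted p under 0.05. Fga, the alpha chain of fibrinogen, was at 9059, 23153 and 41689 CPM fed and at 25427, 20620.0 and 13017 CPM fasted. Fed library 3 was highest and fed library 1 lowest. Fgb, the beta chain, was at 9371, 22732 and 35925 CPM fed and at 24921, 22566 and 12497 CPM fasted. Fgg, the gamma chain, was at 7508, 17631 and 30731 CPM fed and at 17945, 15863 and 9491 CPM fasted. In all 3 chains fed library 1 was lowest and fed library 3 highest of the 6 libraries, with every fasted library between them. Fed library 3 exceeded fed library 1 4.60-fold in Fga, 3.83-fold in Fgb and 4.09-fold in Fgg. Against this spread the fasting estimates were -0.32, -0.18 and -0.37 on the log2 scale (SE 0.58, 0.55 and 0.55, edgeR adjusted p = 0.782, 0.877 and 0.732), and they turned positive, to 0.29, 0.32 and 0.20, without fed library 3, the library with the highest acute phase reference level. Without fasted library 3 the Fgb estimate was 0.045.

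The fibrinogen genes were also the most abundant members per transcript length. By mean FPKM Fgb came first at 12770.3, then Fgg at 10463, Fga at 7296 and C3 at 2267, and Proc came last at 14.7. The 3 chains took 2.47, 5.48 and 7.52% of the summed FPKM of all genes fed and 5.08, 4.65 and 2.98% fasted. For the 28 members outside the acute phase group that percentage lay between 1.29% and 1.62%. The FPKM ratio of Fga to Fgb ranged from 0.502 in fasted library 2 to 0.641 in fed library 3, and that of Fgg to Fgb from 0.744 in fasted library 2 to 0.905 in fed library 3. The genes lie side by side on chromosome 3 of GRCm38, Fgg at chr3:83007724-83015049, Fga at chr3:83026076-83033627 and Fgb at chr3:83040141-83049863, Fgb on the minus strand.

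C3, the central complement protein on which all routes converge, was at 4594, 13195 and 19817 CPM fed and at 12834, 15196 and 10212 CPM fasted. Fed library 1 was lowest and fed library 3 highest, as for fibrinogen (edgeR log2 fold change 0.024 ± 0.53 SE, adjusted p = 0.982). Cfb, factor B of the alternative route, was at 1008, 1507 and 1865 CPM fed and at 1164, 1211 and 995 CPM fasted (edgeR log2 fold change -0.38 ± 0.28 SE, adjusted p = 0.468). Serping1, the C1 inhibitor, was at 736, 1292 and 1320.5 CPM fed and at 1259.9, 1362 and 1198 CPM fasted (edgeR log2 fold change 0.19 ± 0.27 SE, adjusted p = 0.723). In these genes fed library 1 held the lowest or nearly the lowest value, and the groups overlapped.

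C4bp, the C4b binding protein, was at 753, 1299 and 1504 CPM fed and at 1167, 1161 and 801 CPM fasted (edgeR log2 fold change -0.18 ± 0.31 SE, adjusted p = 0.767). C4b, a component of the classical and lectin routes, was at 1157, 1573 and 1606 CPM fed and at 1712, 1901 and 1653 CPM fasted (edgeR log2 fold change 0.28 ± 0.23 SE, adjusted p = 0.519). C4b was the acute phase member whose groups did not overlap in CPM, by a narrow margin and without passing. On the FPKM scale the C4b groups overlapped, at 269, 339 and 288 FPKM fed and at 328, 362 and 368 FPKM fasted. The near copy of C4b, C4a, was not analysed here, and reads may be shared between them. C9, described above, ran the other way among fed libraries: fed library 1 exceeded fed library 3 2.75-fold. C9 was thus the exception among the 9 in the order of the fed libraries.

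**Figure D3:**
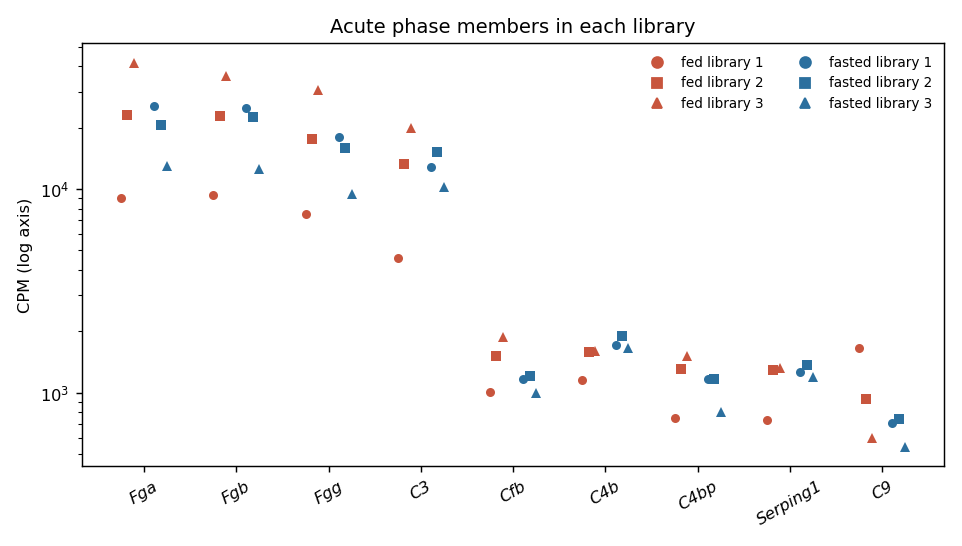
CPM (y axis, log scale) of the 9 acute phase members in each fed (red) and fasted (blue) library. In the fibrinogen chains and C3 fed library 1 is lowest and fed library 3 highest, with the fasted libraries between them, while in C9 fed library 1 is highest at 1652 CPM.

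Within the fed group, many members followed one of 2 orders. In 14 of 37 members (37.8%) fed library 1 was lowest and fed library 3 highest of the fed libraries, against 23.6% of all genes tested. They were 8 of the 9 acute phase members and Cpb2, Kng1, Pros1, F2, Mbl1 and F9. The reverse held in 11 members (29.7%), against 25% of all genes: C9, Klkb1, F13b, C8g, C8b, Serpind1, C6, C2, Masp1, Masp2 and C8a. A difference of at least 1 on the log2 scale between fed libraries 3 and 1 was seen in 13 members (35.1%), against 17.2% of all genes. The largest were those of Klkb1 (-3.26), Fga (2.20) and C3 (2.11). The acute phase reference genes had a median difference of 3.19 on that scale, and its part in the order of the members was not tested. Over all 6 libraries, 6 members (16.2%, against 5.46% of all genes) had fed library 1 lowest and fed library 3 highest: the fibrinogen chains, C3, C4bp and Kng1. The reverse held for 5 (13.5%, against 6.44%): Klkb1, C8b, C8g, Serpind1 and C2. The members were sorted here by their values in the fed libraries, and for the counts over all 6 libraries by fed and fasted values. These counts are therefore descriptions without a test.

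The fasted libraries took no part in sorting the 14 and the 11 members by fed order, but they entered the counts over all 6 libraries. Fasted library 3, which had the lowest acute phase reference level of the fasted group, was the lowest fasted library in 13 of the 14 members of the first kind (92.9%), F9 being the exception. Over all genes sorted the same way it was lowest in 46.5%. Of the 14 members, 8 are acute phase members, so their low values in this library are a description and no independent test. Of the 11 members of the second kind, fasted library 3 was highest in 5 (45.5%), against 47.6% of all genes so sorted: Klkb1, F13b, Serpind1, C2 and Masp2. It was lowest in 4, C6, C8b, C9 and Masp1. Of the members in neither order, fasted library 3 was also lowest in Cfi, F10, F11, F12, Hc, Plg and Serpinf2. It was not lowest in F5, F7, Mbl2, Proc and Serpinc1. Across the 37 members, Pearson's r between the log2 difference of fed libraries 3 and 1 and that of fasted library 3 from the mean of fasted libraries 1 and 2 was -0.45, and over all 11633 genes -0.22. It was -0.54 in the 9 acute phase members, -0.31 in the 28 others and -0.078 in the 20 acute phase reference genes. Without Proc it was -0.66, and without Proc and Klkb1, both of doubtful values, -0.64. This is a correlation across genes of the same 6 libraries, and genes are not independent replicates.

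**Figure D4:**
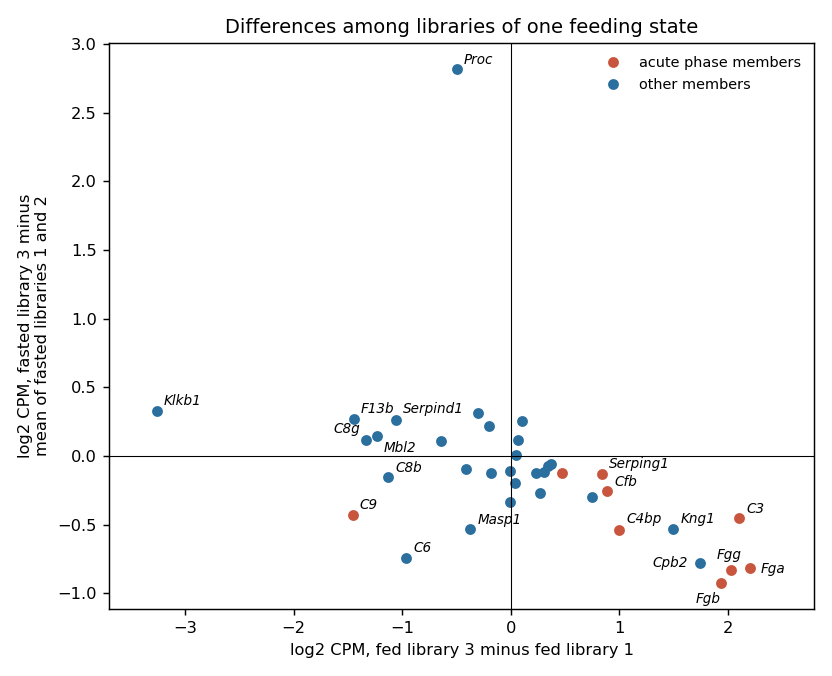
Each point is a member: x axis, log2 CPM of fed library 3 minus fed library 1; y axis, log2 CPM of fasted library 3 minus the mean of fasted libraries 1 and 2. The fibrinogen chains, C3, Cpb2 and Kng1 lie at the lower right, Klkb1, F13b and Serpind1 at the upper left, C9 and C6 at the lower left, and Proc, whose values are doubtful, at the top.

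With the acute phase reference level of each library as a covariate, edgeR called 6 members (16.2%), against 10.8% of all genes. F11 (-1.66) and C8a (-0.64) were lower, and F5 (0.68), F12 (0.54), F13b (0.70) and Pros1 (0.82) higher in fasted livers on the log2 scale. Their edgeR adjusted p ran from 0.00287 for F11 to 0.0465 for F12. DESeq2, without the covariate, called 5 members (13.5%), against 8.33% of all genes: F11, C8a, F5, F12 and Pros1, with the same directions. No acute phase member passed in either fit.

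Genes outside the members were read from lists of the same pathways. Of 6 genes of the vitamin K cycle and of clotting factor secretion, 1 fell and none rose in edgeR (16.7%, against 2.52% of all genes), and DESeq2 called the same gene. It was Ggcx, the carboxylase that modifies the vitamin K dependent proteins F2, F7, F9, F10, Proc and Pros1. Ggcx was at 48.9, 53.1 and 49.96 CPM fed and at 24.5, 22.2 and 24.5 CPM fasted and fell 2.13-fold (edgeR log2 fold change -1.09 ± 0.12 SE, adjusted p = 0.0119). The libraries within each state lay close together, and the call was lost without fed library 2 or any single fasted library (edgeR adjusted p 0.0536 to 0.0863). Of the 6 members it modifies edgeR called 0. Pros1 had an unadjusted edgeR p under 0.05 (16.7% of the 6, against 21.8% of all genes) and was called by DESeq2. The median log2 fold change of the 6 was 0.21, which includes Proc, whose values cannot be compared.

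Of 38 further genes of these systems 30 were tested. In edgeR 1 rose and none fell (3.33%, against 2.52% of all genes), with 5 at an unadjusted p under 0.05 (16.7%, against 21.8%). DESeq2 called 3, Hrg higher and Serpina10 and A2m lower in fasted livers, where it called 8.33% of all genes. Serpina10 encodes an inhibitor of factor X and was at 428, 913 and 1355 CPM fed and at 519, 360.0 and 240.5 CPM fasted (edgeR log2 fold change -1.27 ± 0.46 SE, adjusted p = 0.168). Hrg, the histidine-rich glycoprotein that binds plasminogen and heparin, was at 565, 953 and 833 CPM fed and at 2224, 2735 and 2034 CPM fasted. The groups lay far apart and Hrg rose 2.98-fold (edgeR log2 fold change 1.57 ± 0.28 SE, adjusted p = 0.0374), a call lost without fed library 2 or any single fasted library (edgeR adjusted p 0.117 to 0.166). A2m, the alpha 2 macroglobulin gene, was chosen after its values were seen: it was at 3.32, 495 and 6075 CPM fed and at 10.3, 37.8 and 0.692 CPM fasted. Its value in fed library 3 stood far above all others (edgeR adjusted p = 0.158). Of 10 hepatocyte transcription factors edgeR called 1 (10%). Nr1i3, the receptor CAR, was at 52.8, 71.2 and 41.6 CPM fed and at 159, 154 and 239 CPM fasted and rose 3.33-fold (edgeR log2 fold change 1.74 ± 0.27 SE, adjusted p = 0.0276). That call too was lost without fed library 2 or any single fasted library (edgeR adjusted p 0.0843 to 0.104), and Nr1i3 overlaps exons of Tomm40l on the opposite strand. Of the 20 acute phase reference genes none passed in edgeR or DESeq2, and 2 had an unadjusted edgeR p under 0.05 (10%, against 21.8%). The median log2 fold change of the 20 was -0.44. The 2 with the highest counts were Hpx at 6932, 27427 and 48737 CPM fed and at 23682, 24327 and 14273 CPM fasted and Hp at 4532, 22327 and 33208 CPM fed and at 18732, 18002 and 9385 CPM fasted, where fed library 1 was lowest and fed library 3 highest.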

How the data were processed

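Libraries were made from Trizol-extracted total RNA after Ribo-Zero removal of ribosomal RNA, with the TruSeq Stranded Total RNA kit, per the labels' protocols. CASAVA 1.8, TopHat2 and the human build hg19 are named in the submitters' processing notes. The identifiers and coordinates of the table are those of mouse. For the counting program, annotation and strand the sources used here give no name or setting. Without a stated strand setting, reads of genes that overlap on opposite strands cannot be told apart. The authors deposited an estimated count and an FPKM for each gene and library, per the file headers. In each library 90.5% to 91.1% of the estimated counts above 0 were whole multiples, within 0.02, of one step (0.840 to 1.18). Counts were divided by that step and rounded, and lines sharing a symbol (162) were summed. The 37 members were matched by symbol, and their identifiers gave the GRCm38 coordinates in GENCODE M21.

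Over all genes, fasted and fed libraries were compared in edgeR 4.0.16 (R 4.3.3) by its quasi-likelihood test, using TMM factors, filterByExpr at a minimum count of 10, no covariate, two-sided p-values and Benjamini-Hochberg adjustment at 0.05. Log2 CPM used a prior count of 2, and a standard error is the log2 fold change divided by the square root of F. With 3 against 3 libraries an exact permutation test cannot go below 0.1, so none is printed. Alternatives used DESeq2 1.42.0 and limma 3.58.1, the latter on log2(FPKM + 1) and log2(FPKM + 0.1). The fit was tested on simulated counts. The rule for values by library took called members, members without overlap and a log2 fold change of at least 1, the acute phase members, the most abundant member by FPKM of each role without such a member, and called genes of the other lists or else their 2 most abundant. F5, F12, F13b, Kng1, Klkb1, Pros1, Serpind1, Proc, Cpb2, C8a, C6, Mbl1 and Mbl2 are given by library beyond that rule, chosen after their values were seen. The members and lists were chosen with earlier results of these data known. Some items of the lists are not reported here. The SE of the fit and the SD include the spread among the 3 libraries of a group. The CPM given for 3 counts covers counting error only.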

Additional observations from a re-analysis of the deposited data

How the results depend on the processing

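Of 760 results by gene and alternative (the 37 members, Ggcx, Hrg and Nr1i3 under 19 other settings), 693 kept their direction and their side of the threshold, 21 lost a call, 9 gained one and 37 changed sign, none of these with an adjusted p under 0.05. The number of genes called, 293, was 1054 with DESeq2, 173 with limma on log2(FPKM + 0.1), 40 with limma on log2(FPKM + 1) and no filter and 1258 with the acute phase covariate, and ran from 3 to 753 when single libraries were left out. The number of members called was 5 with DESeq2 and 6 with the covariate, and ran from 0 to 1 when single libraries were left out. The median of the acute phase members ran from -0.45 to 0.29 in those fits, the highest without fed library 3, and that of the other members from 0.025 to 0.16. The cause was not tested. No sign was seen that the same replicate numbers pair the libraries. Deviations from the group means correlated at -0.07, 0.18 and -0.13 for numbers 1, 2 and 3, and 2 of 6 libraries correlated best with their own number. With 3 libraries per group these values cannot settle whether the libraries are paired. With the replicate block edgeR called 29 genes and 0 members, where F11 had an adjusted p of 0.0628, Ggcx 0.0702, Hrg 0.127 and Nr1i3 0.114; with it 0 of these 40 genes passed. Log2 fold changes that took the other sign were Fgb 0.00080 with the acute phase covariate, Serpinc1 -0.0015, Serpind1 -0.050, C3 -0.053 and Cfi -0.014 with upper quartile factors, Serpinc1 -0.016, Cfi -0.023 and Masp2 -0.14 with limma on log2(FPKM + 1), Serpinc1 -0.016, Cfi -0.023 and Masp2 -0.14 with limma on log2(FPKM + 0.1). Others were Serpinc1 -0.016, Cfi -0.023 and Masp2 -0.14 with limma on log2(FPKM + 1) and no filter, Serpind1 -0.035 and C3 -0.026 with a minimum mean count of 100, Serpind1 -0.00025 with scaling without members, reference genes and Alb (chosen after seeing the data). With single libraries left out, log2 fold changes that changed sign ran from -0.14 to 0.070 (F10), -0.74 to 0.29 (Fga), -0.58 to 0.32 (Fgb), -0.77 to 0.20 (Fgg), -0.25 to 0.17 (Serpind1), -0.060 to 0.33 (Serping1), -1.39 to 0.42 (Proc), -0.26 to 0.36 (Kng1), -0.18 to 0.99 (Klkb1), -0.0025 to 0.28 (C2), -0.40 to 0.52 (C3), -0.19 to 0.039 (Hc), -0.50 to 0.15 (C8g), -0.063 to 0.12 (Cfi), -0.45 to 0.027 (C4bp).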
